A study of Drosophila melanogaster with 2 samples.

Results

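A set of 8 genes that encode insulator proteins of Drosophila melanogaster were examined for binding of CG4404, an uncharacterised protein, by ChIP-seq. They were Cp190, the zinc-finger genes CTCF, su(Hw), pita and ZIPIC, the BTB-domain gene mod(mdg4), and Ibf1 and Ibf2. These 8 genes, of 13968 protein-coding genes and 18277 annotated genes on the 7 chromosome arms used, were selected by name after binding values at a wider set of insulator genes were known, with the signal at Cp190 among them. Their binding values are therefore a description, and no test was made on them. All samples were 1 group: whole embryos at 0 to 4 hours after laying from transgenic flies of the strain CG4404-GFP, in which an inserted construct expresses a CG4404-eGFP fusion. The chromatin was precipitated with an antibody to GFP in 2 biological replicates. Whether the flies also kept an untagged CG4404 gene, and which promoter drove the fusion, is not given in the sources used here. No input library and no embryos without the tag were analysed here, so every peak rests on the authors' own calls.

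Insulators are stretches of DNA that limit contact between an enhancer and a promoter when they lie between them, and many lie at the borders of chromatin domains. In flies a set of DNA-binding proteins, most with zinc fingers, recognise such stretches and recruit cofactors with a BTB domain, above all CP190 and Mod(mdg4). Maternal RNA and protein of several of these factors are loaded into the egg, and zygotic transcription begins within the hours sampled here.

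The authors called peaks on the pooled replicates and on each replicate. Every peak of a thresholded list had an IDR, the irreproducible discovery rate, of 0.01 or less, which is a −log10 IDR of 2 or more. The larger pooled list left out 205 ranked peaks that also met this limit, by a rule that the sources used here do not state. The IDR of a peak estimates the share of irreproducible calls among peaks ranked at least as high. It is judged by how alike the sets of reads rank them. The larger pooled list held 3835 peaks on the arms, with a median signal of 118 and a highest signal of 2750. The list of replicate 1 held 2957 and that of replicate 2 held 2479. The signal is the peak caller's own value in a unit that the files do not state, so it was set side by side only within a list. A gene counted as having a peak when a summit lay in its body or within 2000 bp of it, and as bound at its transcription start site (TSS) when a summit lay within 500 bp of a start.

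The larger pooled list had 7 peaks at 5 of the 8 genes. The background was 3934 of 13968 protein-coding genes (28.2%). Replicate 1 alone had 6 peaks at 4 of the 8 genes, beside 24.3% of protein-coding genes, and replicate 2 alone had 4 peaks at 3 of them, beside 20.3%. The conservative pooled list had 6 peaks at 4 of them, beside 27.3%. Within 500 bp of their own start, 3 of the 8 were bound in the larger list, beside 14.2% of protein-coding genes. Replicate 1 gave 2 so bound, beside 12.9%, and replicate 2 gave 1, beside 10.2%. The 7 peaks fell into a group of 4 with signals of 377 to 657 and a group of 3 with signals of 70.5 to 77.1, and no peak lay between. The 4 stronger peaks stood at Cp190, inside mod(mdg4), upstream of mod(mdg4) and past the 3′ end of pita. The 3 weaker ones stood at su(Hw), at the start of pita and inside ZIPIC. CTCF, Ibf1 and Ibf2 had no peak in any of the 4 thresholded lists.

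The genome sequence under 4 of the 7 summits shows how unlike each other these sites were, and is given here from 100 bp before to 100 bp after the pooled summit. It was read from the RefSeq copy of dm6 on the plus strand at chr3R:15275294-15275494 for Cp190, chr3R:14308803-14309003 for su(Hw), chr3R:21378706-21378906 for the peak upstream of mod(mdg4) and chr3R:30035611-30035811 for ZIPIC. Capitals mark a match on either strand to TATAAA, the TATA-box word, or to one of 5 A and T words that stood most in excess at all summits. ZIPIC has no capitals because none of these words matched there.
Cp190: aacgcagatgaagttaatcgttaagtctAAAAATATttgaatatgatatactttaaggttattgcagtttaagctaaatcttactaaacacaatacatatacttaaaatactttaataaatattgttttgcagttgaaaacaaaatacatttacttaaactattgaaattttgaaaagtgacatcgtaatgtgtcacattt
su(Hw): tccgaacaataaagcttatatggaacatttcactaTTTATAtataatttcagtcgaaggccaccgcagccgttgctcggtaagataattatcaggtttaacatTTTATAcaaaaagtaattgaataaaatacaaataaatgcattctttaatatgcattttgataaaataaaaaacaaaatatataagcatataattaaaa
upstream of mod(mdg4): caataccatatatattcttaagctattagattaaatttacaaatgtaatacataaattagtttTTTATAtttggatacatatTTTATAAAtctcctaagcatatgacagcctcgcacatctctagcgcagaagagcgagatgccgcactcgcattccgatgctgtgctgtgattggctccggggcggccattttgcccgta
ZIPIC: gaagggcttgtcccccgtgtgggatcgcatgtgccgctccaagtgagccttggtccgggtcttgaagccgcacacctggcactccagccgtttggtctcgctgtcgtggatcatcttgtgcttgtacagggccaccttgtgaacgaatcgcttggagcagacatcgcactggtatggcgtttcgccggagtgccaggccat

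The windows at Cp190 and su(Hw) were poor in G and C, at 23.4% and 24.9%. Over all 3835 summit windows of the list, the median was 35.3% and the 10th percentile 27.4%. The window upstream of mod(mdg4) held 38.8%. The window in ZIPIC, which is coding sequence, held 60.2%, above the 90th percentile of 50.2%. Across the 7 windows these values ran from 23.4% to 60.2%, so the sites differed widely in base composition.

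Words known for insulator and promoter factors were then counted on both strands of the 7 windows. TATAAA lay in 3 of the 7, at su(Hw), upstream of mod(mdg4) and downstream of pita, beside 34.8% of all summit windows. The su(Hw) window held 2 copies on the minus strand, which began 65 bp before and 3 bp after the summit. The window upstream of mod(mdg4) held 3, of which one on each strand overlapped. The replication-related element TATCGATA lay 89 bp from the summit in the window downstream of pita alone, beside 2.22% of all windows. CGATA, the word of the insulator protein BEAF-32, lay in both pita windows (25.1% of all). In the window downstream of pita, 2 of its 3 matches, one on each strand, lie inside the replication-related element. GAGAG, the word of GAGA factor, lay in the window at the start of pita alone (21.7% of all). The insulator and promoter words AGGGCTG for Pita and ZIPIC (2.45% of all), TTGCATAC for Su(Hw) (46 of 3835), AGNNGGCGC for CTCF (2.48%), GGTCACAC for M1BP (1.04%) and CCAATTGG for Insensitive (0.522%) were in none of the 7. CAGGTA, the word of the early activator Zelda, was in none either (4.17% of all). These letters alone were searched, and a window without them may still hold a weaker form of a site.

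The 5 words most in excess over windows 500 bp away were runs of A and T, and several overlap one another. Cp190 held AAAAATAT, found in 11.9% of all summit windows, beginning 72 bp before the summit. The peak inside mod(mdg4) held TTAAAAAA on its minus strand, found in 10.4% of all. ATTTAAAA, AAAAAAAT and TTTAAAAA, found in 11.2%, 13.1% and 10.4% of all, were in none of the 7.

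**Figure D1:**
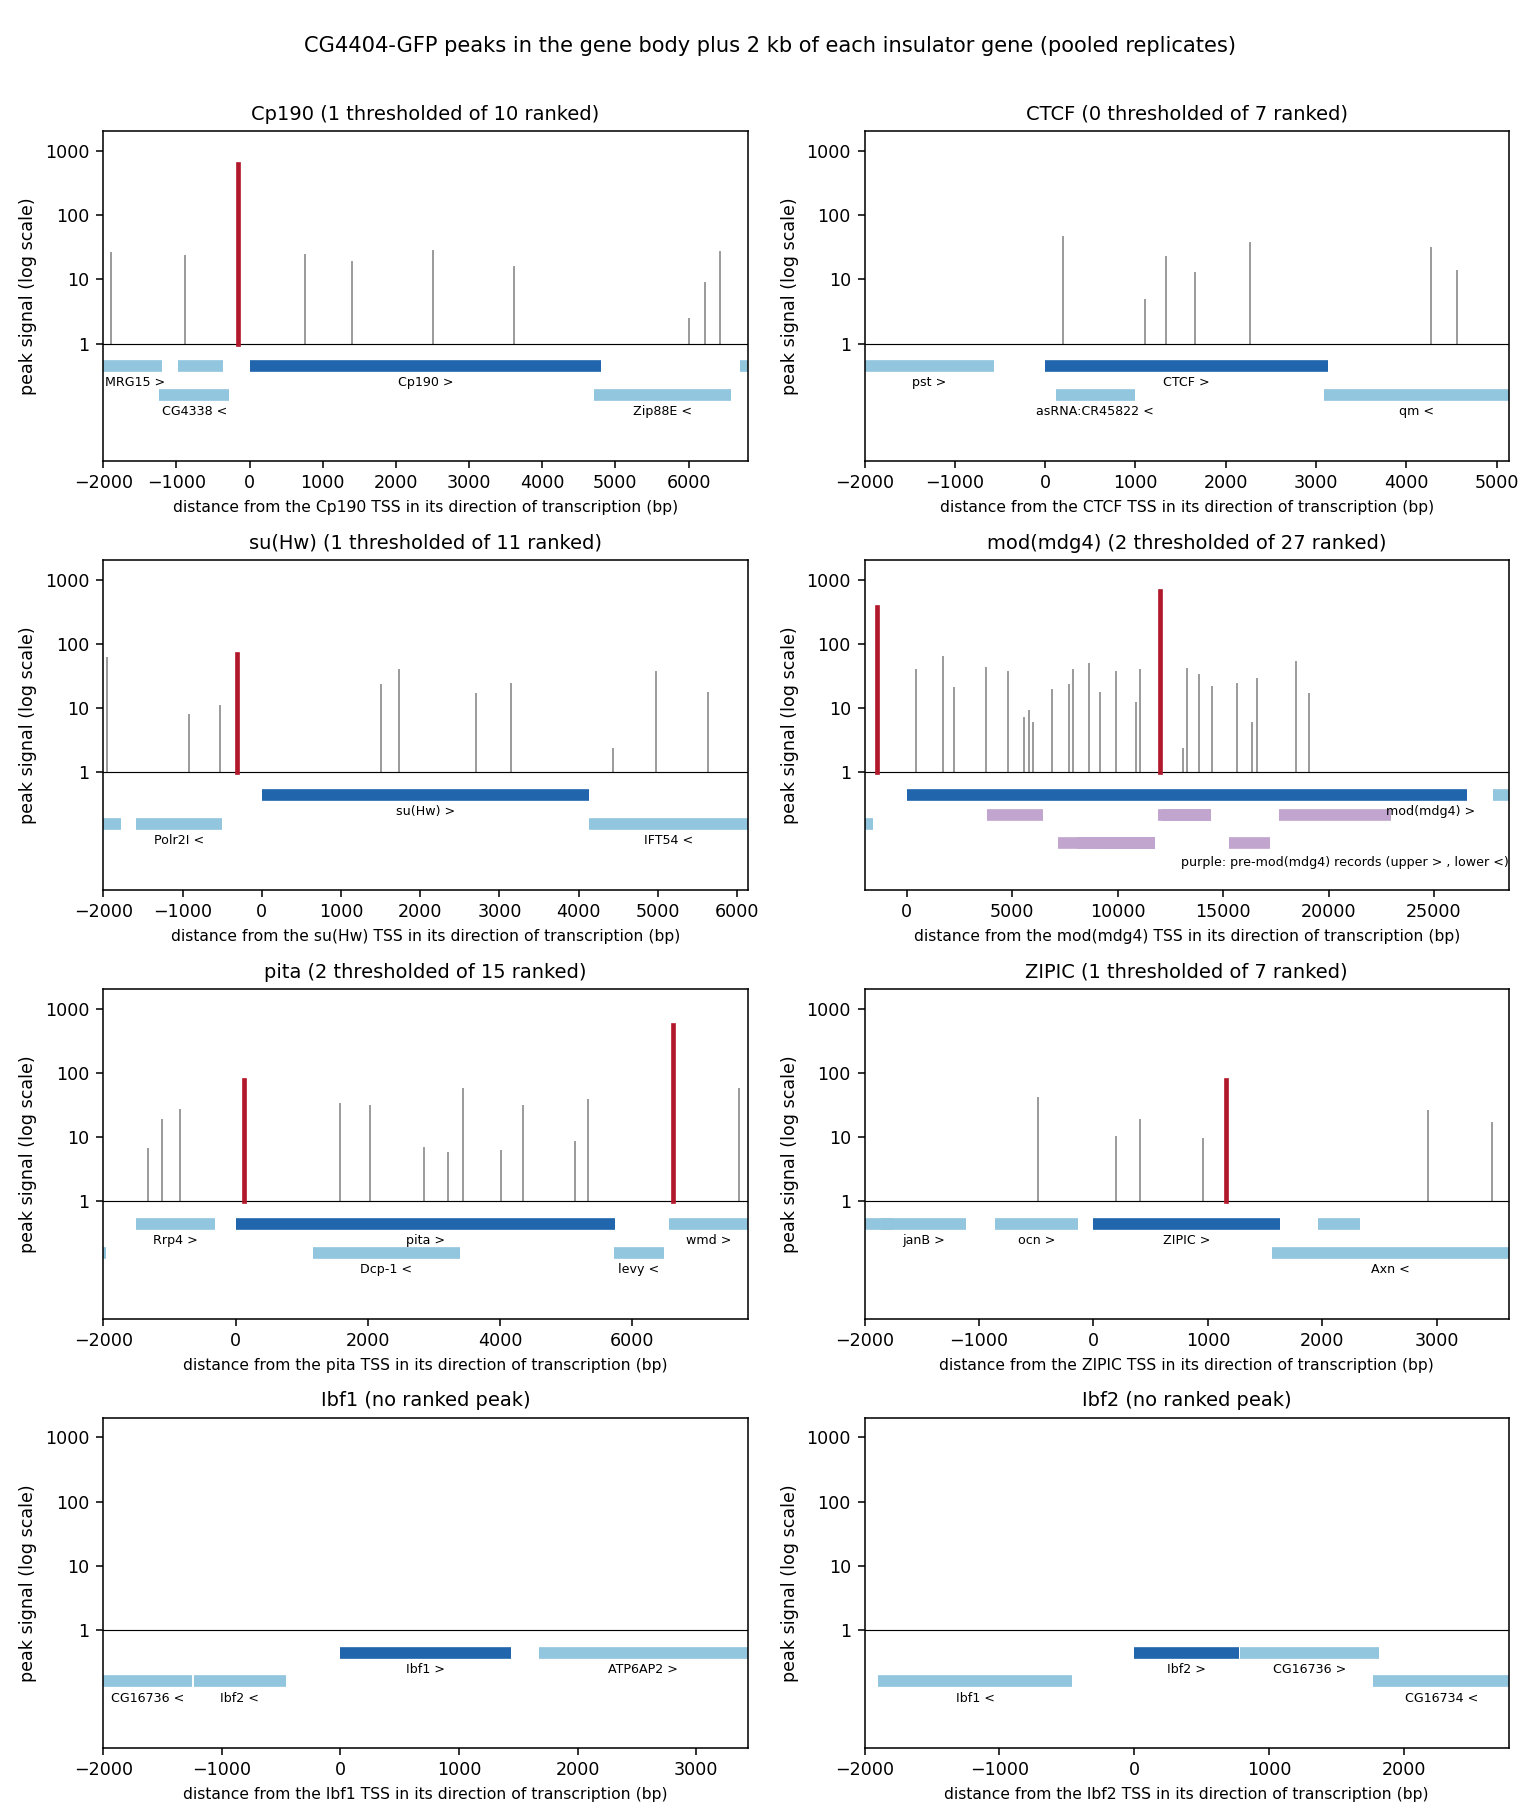
Peaks of the pooled replicates at each of the 8 genes, drawn along the gene's own direction of transcription, with distance from its TSS in bp on the x axis and peak signal on a log y axis. Red lines are thresholded peaks and grey lines are ranked peaks that did not pass, the gene is dark blue, neighbours are light blue (the shortest pieces unnamed, tin being the one at the left edge of the mod(mdg4) panel) and the pre-mod(mdg4) records are purple. The 7 red lines stand in 5 panels, and the Ibf1 and Ibf2 panels are empty.

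Cp190 (FBgn0000283, 3R, 15270432 to 15275241, minus strand) encodes the shared cofactor of the group, a BTB and zinc-finger protein that many DNA-binding insulator proteins recruit. Its 1 peak, at 3R, 15275220 to 15275539, had a signal of 620, which was rank 135 of 3835 and 5.28 times the median of the list. The replicates gave it a signal of 338 (rank 138 of 2957) in replicate 1 and 286 (rank 135 of 2479) in replicate 2, so it ranked alike in both lists. The peak sits between a pair of genes that start back to back. Its summit lay 153 bp upstream of the Cp190 TSS and 128 bp upstream of the TSS of CG4338, and the starts are 281 bp apart. Both gene bodies overlap the peak, so the files do not tell which of the promoters is occupied. The antisense record asRNA:CR46081 lay 207 bp away and the body of MRG15, a chromodomain gene, 1046 bp away. The other 9 ranked peaks around Cp190 had an IDR of 0.53 or more, so 1 site alone stood out.

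The largest of the 8 genes, mod(mdg4) (FBgn0002781, 3R, 21350846 to 21377401, minus strand), encodes BTB proteins that share a first part and differ in their last part, because their RNAs are joined in trans from separate transcripts of the same locus. The annotation holds 22 transcripts that share 1 start, and 23 further records named pre-mod(mdg4) for the transcripts that supply the variable ends. Its 2 peaks were the strongest and the fourth strongest of the 7.

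The stronger one, at 3R, 21365247 to 21365613, had a signal of 657, rank 120 of 3835 and 5.59 times the median. Its signal was 410 (rank 81) in replicate 1 and 256 (rank 178) in replicate 2, so it stood higher in the list of replicate 1. The summit was in an intron, 11997 bp from the start of mod(mdg4), yet it lay at starts of another kind. Of the 23 pre-mod(mdg4) records, 10 begin within 500 bp of it, 7 on the plus strand and 3 on the minus strand. The plus-strand records (U, V, W, X, Y, AD and AE) begin 205 bp from the summit, and the minus-strand records C and AB begin 114 bp from it on the other side, with starts 319 bp apart. A start of record E lies 84 bp away, and the summit is in its 5′ UTR. The 23 records use 7 distinct starts, and the 4 starts farther off had their nearest thresholded summit 2725 to 5636 bp away. Thus the strongest peak of the whole set stood between 2 opposed groups of starts of the variable ends, and not at the start that the mod(mdg4) transcripts share. At that shared start the best ranked peak had a signal of 38.9 and an IDR of 0.54, and replicate 2 had no ranked peak within 500 bp.

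The other peak, at 3R, 21378654 to 21378882, had a signal of 377, rank 343 and 3.21 times the median. Its signal was 189 (rank 408) in replicate 1 and 195 (rank 290) in replicate 2. It lay 1405 bp upstream of mod(mdg4) but 171 bp upstream of tin, which encodes the homeodomain protein Tinman of the heart and dorsal mesoderm. The starts of mod(mdg4) and tin are 1576 bp apart and point away from each other. With the 2000 bp limit this peak is the one nearest to the limit from inside, and the next thresholded peak outside it lay 42652 bp from mod(mdg4). Over the 8 genes, the thresholded peaks closest from outside lay 5391 bp from CTCF (signal 90.9), 5769 bp from Cp190 (97.2) and 6501 bp from ZIPIC (136).

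At their own starts, su(Hw) and pita had weaker peaks than Cp190, while CTCF, ZIPIC and mod(mdg4) had none that passed. Su(Hw) is the protein that binds the insulator of the gypsy retrotransposon. Its gene su(Hw) (FBgn0003567, 3R, 14304455 to 14308589, minus strand) had 1 peak, at 3R, 14308711 to 14309094, with a signal of 70.5, rank 3282 of 3835. Its IDR of 0.0086 was close to the limit. Replicate 1 gave a signal of 41.2 with an IDR of 0.026 and replicate 2 a signal of 26.3 with an IDR of 0.30, so neither replicate had it in its thresholded list. In the conservative pooled comparison its IDR was 0.036, and it was not listed. The summit lay 314 bp upstream of su(Hw) and 186 bp upstream of Polr2I, a subunit of RNA polymerase II, whose start is 500 bp away in the opposite direction.

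ZIPIC (FBgn0039740, 3R, 30035240 to 30036870, minus strand) encodes a zinc-finger protein that recruits CP190. Its peak, at 3R, 30035519 to 30035902, had a signal of 77.1, rank 3009, and an IDR of 0.0022. Replicate 1 listed it with a signal of 45.7 and an IDR of 0.0092, and replicate 2 had a signal of 43.1 with an IDR of 0.051, which did not pass. The summit was in a coding exon 1159 bp from the ZIPIC TSS. The nearest start of any gene, that of asRNA:CR44045, was 804 bp away, and the body of Axn, a negative regulator of Wnt signalling, was 400 bp away. Such a position was uncommon, since 130 summits of the list (3.39%) lay in a coding exon and over 500 bp from every start, and their median signal was 68.8. An overlapping peak with a signal of 9.37 was ranked in both pooled comparisons. It passed in the conservative list, with an IDR of 0.0019, and not in the larger list, with an IDR of 0.79.

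CTCF (FBgn0035769, 3L, 7353578 to 7356713, minus strand), the fly gene of the factor known from vertebrate domain borders, had 7 ranked pooled peaks and none that passed. The one with the best IDR (0.49) had a signal of 31.1 and lay past the 3′ end, 4267 bp from the start. The one at the promoter, 198 bp into the gene, had a signal of 45.8 and an IDR of 0.74. Replicate 1 gave the promoter 35.3 with an IDR of 0.082, and replicate 2 had no ranked peak within 500 bp. The nearest thresholded peak lay outside its span, beside the start of qm.

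Ibf1 (FBgn0037670, 3R, 9258964 to 9260400, plus strand) and Ibf2 (FBgn0037669, 3R, 9257727 to 9258501, minus strand) encode BED-finger partners of CP190 and start 463 bp apart in opposite directions. Neither had a thresholded or even a ranked peak in its span, in any of the 4 ranked lists. In the pooled ranked list that held for 1339 of 13968 protein-coding genes (9.59%). Ranked peaks include very weak candidates and are spread over the genome, with a median of 654 bp between neighbouring summits, but none lay in 15700 bp around this pair. Of 127942 gaps on X, 2L, 2R, 3L and 3R, 680 were at least as long. The gap was 13386 bp in replicate 1 and 16593 bp in replicate 2, so it was present in both. It held 7 protein-coding genes, namely Ibf1, Ibf2, ATP6AP2, CG16734, CG16736, St2 and sage. Why no candidate was listed there was not tested, and a missing peak is not read as missing binding. The nearest thresholded peak, at Vps15 (signal 105), lay 11783 bp from Ibf2 and 13020 bp from Ibf1.

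The gene pita (FBgn0034878, 2R, 23548967 to 23554712, minus strand) encodes another zinc-finger protein that recruits CP190. One of its 2 peaks lay at its own start, at 2R, 23554398 to 23554781, in the 5′ UTR and 122 bp downstream of the TSS. It had a signal of 76.2, rank 3042, and an IDR of 0.0024. Replicate 1 listed it with a signal of 52.7 and an IDR of 0.0021, while replicate 2 gave a signal of 28.7 and an IDR of 0.85. It was missing from the conservative list, with an IDR of 0.016. Rrp4, an exosome subunit gene, lay 428 bp away.

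The much stronger peak, at 2R, 23547945 to 23548266, was 872 bp past the 3′ end of pita and had a signal of 559, rank 169 of 3835. Its signal was 340 (rank 136) in replicate 1 and 221 (rank 235) in replicate 2. It lay in the 5′ UTR of wmd, 56 bp from its start, and 144 bp upstream of levy, a cytochrome c oxidase subunit gene, and those starts are 88 bp apart. So 1 gene contributed a strong and a weak peak, and the strong one was at the promoters of its neighbours.

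**Figure D2:**
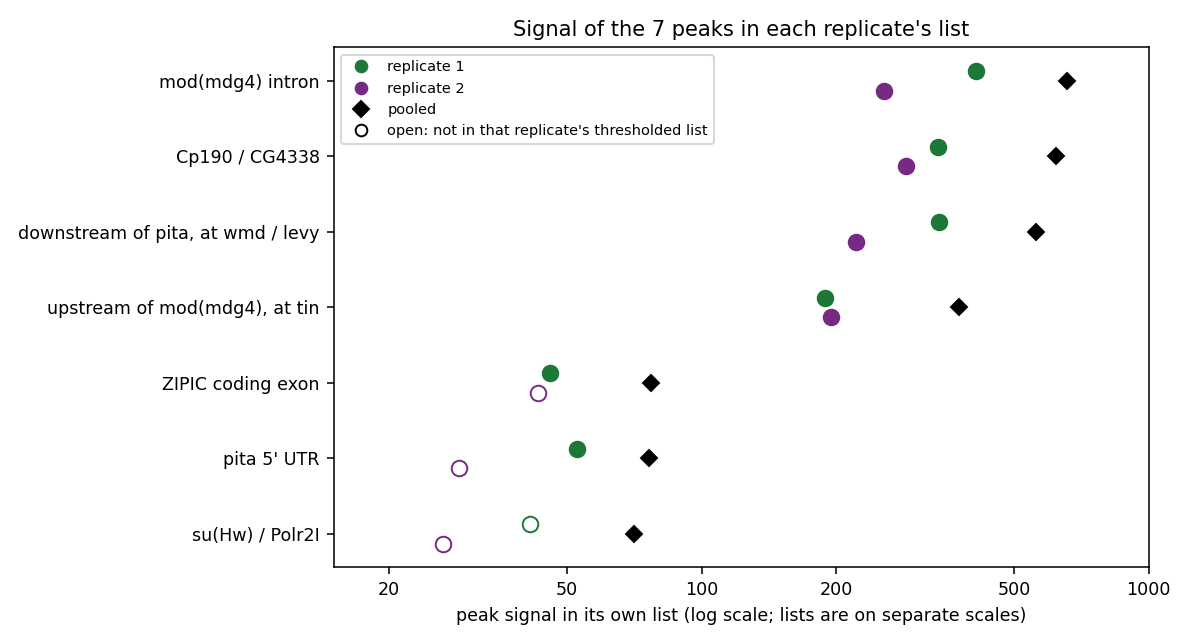
Signal of each of the 7 peaks in the list of replicate 1 (green), of replicate 2 (purple) and of the pooled replicates (diamond), on a log x axis, where the lists are on separate scales. Open circles did not pass in that replicate; the 4 upper peaks have filled circles in both replicates and the 3 lower ones do not.

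Taking the 7 peaks as a set, the thresholded list of replicate 1 overlapped 6 of them, that of replicate 2 overlapped 4 and both overlapped 4 (57.1%). Over the whole list, both overlapped 2040 of 3835 peaks (53.2%), so the share at the insulator genes was close to that of the list. The 4 found in both were the 4 with the highest signal. That division was general. Among the 959 peaks of highest signal (202 or more), 98.7% were found in both replicates, and among the 959 of lowest signal (80.4 or less), 8.45% were. The pooled list was called on the same reads as the replicates' lists, so this overlap is not independent of the signal. The 3 weaker peaks also had a width of 384 bp each, while the 4 stronger were 229 to 367 bp wide. A width of 384 bp belonged to 3004 peaks of the list (78.3%), to 99.8% of those 959 of lowest signal and to 19.1% of the 959 of highest signal.

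**Figure D3:**
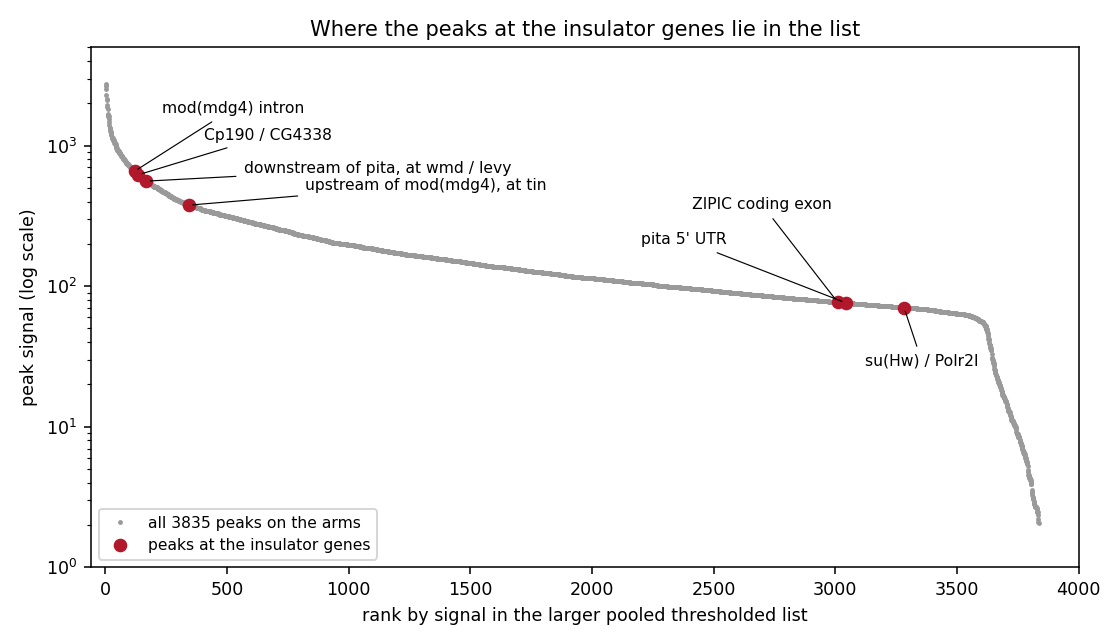
Signal on a log y axis against rank on the x axis for all 3835 peaks of the larger pooled list (grey), with the 7 peaks at the insulator genes in red. Of these, 4 lie at ranks 120 to 343 and 3 at ranks 3009 to 3282.

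By the pooled summit, none of the 4 stronger peaks had the insulator gene's own start as its nearest protein-coding start. The nearest were the starts of CG4338, pre-mod(mdg4)-E, tin and wmd. Record E itself supplies variable ends of mod(mdg4). At Cp190 the margin was small, 128 bp against 153 bp. The replicate 1 summit lay 134 bp from the Cp190 start, closer to it than to that of CG4338. Of the 7 peaks, 2 had the gene's own start as the nearest coding one, at pita and in ZIPIC. Over all protein-coding genes, that held for 3035 of 5641 pairs of a gene and a summit in its span (53.8%). A pair of genes that start in opposite directions, both within 500 bp of the summit, was present at 4 of the 7 peaks, beside 610 of all 3835 peaks (15.9%). They were Cp190 with CG4338, su(Hw) with Polr2I, wmd with levy, and the pre-mod(mdg4) groups, whose separate records add to the starts counted. Relative to length, the merged spans of the 8 genes, 76.7 kb in all, held 9.13 thresholded summits per 100 kb, against 3.1 in the spans of all protein-coding genes. Ranked summits were about as dense in them, with 77 in the 76.7 kb of the 8 genes and 98.2 per 100 kb in the spans of all protein-coding genes.

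Other genes of chromatin architecture were counted beside the 8, in lists written by function when results on a wider insulator list were known. Of 27, 12 had a peak, beside 28.2% of protein-coding genes. The same 12 of the 27 had a summit within 500 bp of their own start, beside 14.2%. The strongest peak of 6 of the 12 had another gene's start nearest, at M1BP, pzg, fs(1)h, e(y)2, Cap-H2 and pds5. Those of Trl and JIL-1 lay 1524 bp and 7069 bp from the gene's own start. The closest share counted over all protein-coding genes took every summit and coding starts only. There the gene's own start was nearest in 53.8% of pairs. Among 9 other DNA-binding insulator genes, 3 had a peak. They were Trl, the gene of GAGA factor (signal 1340), M1BP (196) and BEAF-32 (144), while dwg, Clamp, insv, Elba1, Elba2 and Elba3 had none. Among 10 genes of cofactors and neighbours, 6 had one, led by the chromodomain gene Chro (1950), the zinc-finger gene pzg (509), the histone kinase gene JIL-1 (365) and the bromodomain gene fs(1)h (122). HIPP1, Topors, Top2 and l(3)mbt had none. Among 8 cohesin and condensin genes, 3 had one, the cohesin-associated pds5 (1130), the cohesin subunit gene SA1 (341) and the condensin gene Cap-H2 (275). The cohesin core genes SMC1, SMC3 and vtd, the loader gene Nipped-B and the release factor gene wapl had none. Genes for parts of 1 complex were thus found on both sides, SA1 with a peak and its partners SMC1, SMC3 and vtd without.

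**Figure D4:**
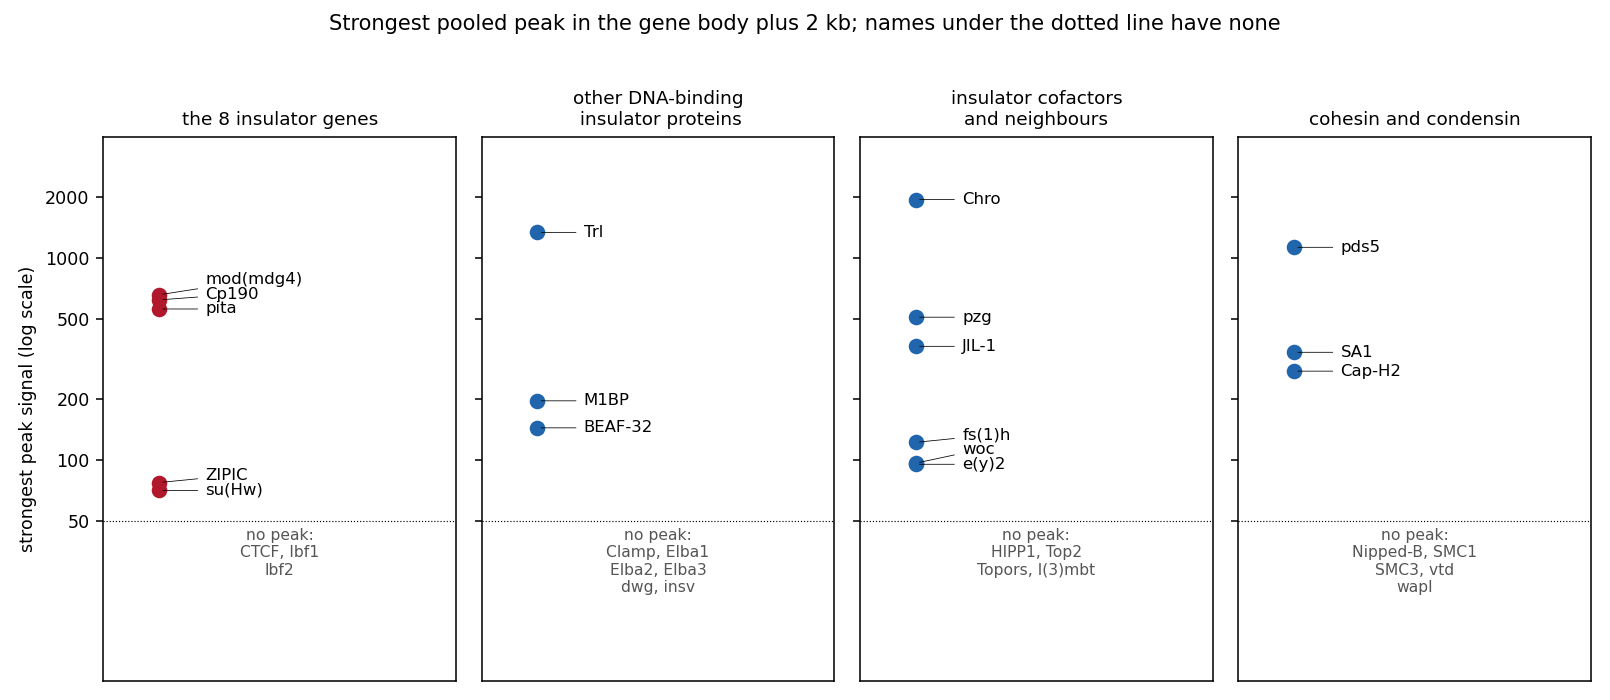
Signal of the strongest pooled thresholded peak in the body plus 2000 bp of each gene, on a log y axis, for the 8 insulator genes (red) and 3 other lists of architectural genes (blue). Genes with no such peak are named under the dotted line; they are 3 of the 8 insulator genes and 15 of the other 27.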

How the data were processed

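Anti-GFP ChIP-seq of the CG4404-eGFP fusion, with chromatin sonicated to 200 to 800 bp per the labels, was available for 2 biological replicates of 1 group. Per the labels, the assembly was dm6, and the authors deposited ranked and IDR-thresholded peaks for each replicate and for the pool. For the aligner and peak caller, names were not given in the sources used here. Each deposited signal value and the deposited −log10 IDR of each peak were used as the authors gave them. The read depth is not given in the files used, so how it bears on the number of peaks was not tested. The signal of a peak in a replicate is that of the ranked peak that overlaps it by at least 1 bp, and ranks count the thresholded peaks on the arms.

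Coordinates are 1-based. Genes came from Ensembl release 115 of the same assembly, and 13942 of 13944 genes compared had the same coordinates in RefSeq. The 8 genes, the gene lists and the words were chosen with earlier results of these data known. The rule for named genes takes all 8 genes with every thresholded pooled peak in the span, the ranked peak of lowest IDR where there was none, every gene that overlaps a peak or starts within 500 bp of its summit, and up to 4 genes per list with the strongest peak plus those with none. Other neighbours were named after their values were seen. Replicates are 1 group, so no test was made and no p-value is given. Counting was checked on simulated peaks. Python 3.11.15, numpy 2.4.6 and pandas 2.3.3 were used. Alternatives were other lists, IDR limits, span and TSS distances, and window widths.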

Additional observations from a re-analysis of the deposited data

How the results depend on the processing

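Of the alternatives to the main counts, 31 stayed within 1.5 times the main count and 12 did not. With a single replicate's list, 3 to 4 of the 8 genes had a peak, with 4 to 6 peaks, and 1 to 2 were bound at their start. Of the other 27 architectural genes, 9 to 12 had a peak. Those lists had a peak at 20.3% to 24.3% of protein-coding genes, and bound 10.2% to 12.9% at their start. The lower values are those of replicate 2 alone, without replicate 1. At an IDR of 0.001 or less, 3 genes had 4 peaks, beside 20% of protein-coding genes with a peak. At that limit 1 was bound at its start, beside 10.6% of protein-coding genes. With no flank (0 bp), 3 genes had 3 peaks and 6 of the other 27 had a peak, beside 10.2% of protein-coding genes. In the conservative list 1 gene was bound at its start, beside 13.9%. The main shares were 28.2% with a peak and 14.2% bound at the start, so the background was lower in these settings too. When a peak was given to the nearest protein-coding TSS, an alternative chosen after seeing the data, 2 genes had 2 peaks. So the counts at su(Hw), at the start of pita and in ZIPIC rest on peaks that the stricter limit removes, and the peaks at tin and wmd need the 2000 bp flank. Those at Cp190 and su(Hw), 153 bp and 314 bp outside the gene bodies, are also lost with no flank and kept with one of 500 bp. Over all sequences, the larger list omits 205 ranked peaks of IDR 0.01 or less. Putting back those on the arms, also chosen afterwards, added none at the 8 genes. For single words, 5 counts moved and 23 did not. AGGGCTG appeared at 1 peak within 150 bp, the one inside mod(mdg4), beside 3.78% of all windows. Within 50 bp, no peak held TATCGATA, GAGAG or AAAAATAT (0.913%, 9.67% and 5.95% of all). CGATA was then at 1 peak, the start of pita (13.7% of all).

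No paired analysis was possible because both replicates belong to 1 group. The depth of the libraries is unknown, and no input or untagged control was analysed here, so neither a weak peak nor a missing one can be set against background.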
